A study of Mus musculus with 7 samples.

Results

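H3K27ac, a histone acetylation found at active promoters and enhancers, was followed at 9 genes of neuronal migration: Kalrn, Rnd2, Tspan5, Cdh13, Wdfy3, Angpt2, Cxcr4, Reln and Dab1. Every merged H3K27ac peak that touched the body of one of these genes, or the 10 kb on either side, was taken (mm10 coordinates, GENCODE M21 gene models). This gave 89 of the 66841 peaks. The cells were A2Lox mouse embryonic stem (ES) cells carrying a doxycycline-inducible NeuroD1, a bHLH transcription factor of the neuronal lineage. They were grown with LIF on inactivated feeder fibroblasts, then passaged on gelatin without feeders. Libraries came from uninduced cells (0 h) and from cells given doxycycline at 500 ng/ml for 12 h or 48 h. These times are from the time point labels, while the treatment protocol gives 48 h for every sample. Each time point had 2 libraries, R1 and R2, all from the same cell line. The labels do not say that R1 and R2 were separate cultures, so the p-values measure only the spread between these libraries.

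Newborn cortical neurons leave the ventricular zone and travel along radial glia or tangentially to their layer. Reelin, encoded by Reln, is the secreted signal for layering, and Dab1 is the intracellular adaptor that passes it on. Cxcr4 is the receptor for the chemokine Cxcl12 and guides tangentially migrating interneurons, and Angpt2 is a secreted ligand of the Tie2 receptor, best known from blood vessels. Kalrn encodes a guanine nucleotide exchange factor for small GTPases that act on the actin cytoskeleton, and Rnd2 an atypical small GTPase of radially migrating neurons. Tspan5 is a tetraspanin that escorts the protease Adam10 to the cell surface, Cdh13 a cadherin held in the membrane by a lipid anchor, and Wdfy3 a large scaffold protein of selective autophagy that is needed for axon tracts.

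The middle 300 bases of a gained peak are shown for 3 genes, since these peaks carried time courses described further on. In each gene, this was the peak called higher at 48 h than at 0 h with the smallest adjusted p among those of at most 2000 bases. Sequences are the forward strand of GRCm38 (the assembly named mm10), 5′ to 3′, and capitals mark CANNTG, the E-box to which bHLH dimers bind. The Tspan5 peak lies before an internal coding start, the Angpt2 peak over an exon and the Cdh13 peak in an intron.
Tspan5 peak 17 (chr3:138858560-138858859): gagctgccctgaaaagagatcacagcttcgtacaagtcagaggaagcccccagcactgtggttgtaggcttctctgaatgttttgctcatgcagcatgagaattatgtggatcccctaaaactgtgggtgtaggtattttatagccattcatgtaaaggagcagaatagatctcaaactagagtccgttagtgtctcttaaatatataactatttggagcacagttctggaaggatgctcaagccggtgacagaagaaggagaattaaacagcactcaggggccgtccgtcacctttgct
Angpt2 peak 5 (chr8:18694704-18695003): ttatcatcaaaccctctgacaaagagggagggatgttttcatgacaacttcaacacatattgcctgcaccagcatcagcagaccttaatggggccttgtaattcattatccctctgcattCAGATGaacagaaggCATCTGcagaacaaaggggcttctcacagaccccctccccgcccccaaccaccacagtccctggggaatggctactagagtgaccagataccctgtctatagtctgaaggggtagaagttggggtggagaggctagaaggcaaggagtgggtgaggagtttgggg
Cdh13 peak 4 (chr8:118395428-118395727): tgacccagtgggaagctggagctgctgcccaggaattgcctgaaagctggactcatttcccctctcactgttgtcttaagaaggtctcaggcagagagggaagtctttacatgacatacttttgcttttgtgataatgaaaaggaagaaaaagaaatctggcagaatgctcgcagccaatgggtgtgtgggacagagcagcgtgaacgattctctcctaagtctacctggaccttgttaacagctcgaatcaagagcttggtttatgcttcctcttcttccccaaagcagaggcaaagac
The Angpt2 stretch held 2 copies of the NeuroD1-type E-box CAGATG, 1 on each strand. In the Tspan5 and Cdh13 stretches there was no CANNTG, although the Tspan5 peak held 1 CAGATG and 1 CAGCTG within 250 bp of its centre and the Cdh13 peak 3 CAGATG over its whole length. Over windows of this length at 66783 peaks, 75.29% held CANNTG, 18.51% CAGATG on either strand and 16.13% CAGCTG, the E-box of class I bHLH factors. All 3 are patterns of letters that overlap in definition, and a match is not a bound site.

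At least 1 peak was higher at 48 h than at 0 h in 6 of the 9 genes, and most of the gained peaks lay in Tspan5, Kalrn and Cdh13. The share of all genes with such a peak is not given here, and a gene with more peaks has more occasions for one. The count of 6 is therefore not a result about these genes as a set. At 48 h, 25 of the 89 peaks were higher than at 0 h (28.1%), against 8.56% of all 66841 peaks, and 0 were lower, against 5.45%. These calls are from edgeR's quasi-likelihood test with an adjusted p under 0.05. DESeq2 gave 18 higher and 0 lower. Before adjustment, 6 of the 89 had a p under 0.05 in the lower direction. The 9 genes were chosen with earlier results of these data known. The paper also picked targets, with Wdfy3, Kalrn and Angpt2 among them, partly for increased H3K27ac at 48 h. The excess over all peaks is therefore a description of chosen genes and not independent support for a gain. Tspan5 held 14 of the 25 peaks, Kalrn 4, Cdh13 4, and Wdfy3, Angpt2 and Rnd2 1 each. At 12 h, 15 were higher and 3 lower than at 0 h, against 9.93% and 6.03% of all peaks. These were mostly peaks of Tspan5 (7 higher) and Cdh13 (6 higher). Between 12 h and 48 h, 13 were higher and 2 lower, against 10.7% and 8.43% of all peaks, and 10 of the 13 were among the 25 already called relative to 0 h. The count at 12 h rested on each 0 h and 12 h library: without 0 h R1, 0 h R2, 12 h R1 or 12 h R2 it was 7, 4, 9 or 8 peaks in place of 18. The count at 48 h was 15 without 0 h R1 and 6 without 0 h R2. For 48 h against 12 h, 4 peaks were called without either 12 h library and 30 without 48 h R2. The median log2 fold change of the 89 peaks was 0.31 at 12 h and 0.48 at 48 h, where the medians over all peaks were -0.08 and -0.04.

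**Figure D1:**
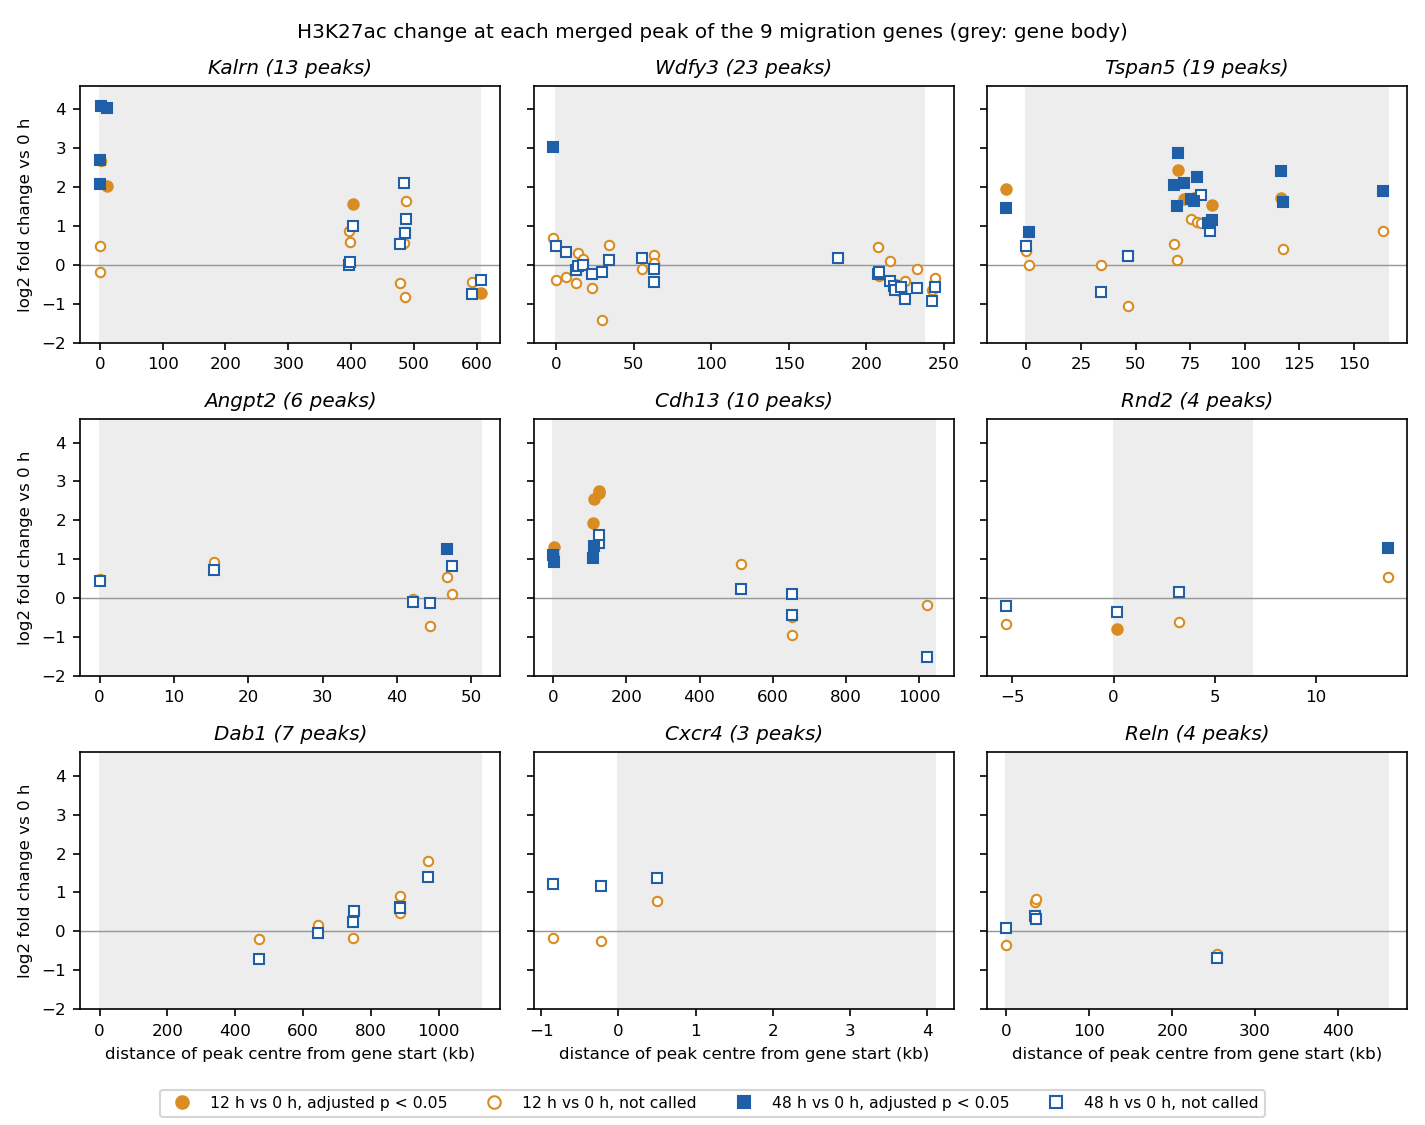
Log2 fold change of H3K27ac relative to 0 h (y axis) at each of the 89 peaks against the distance of the peak centre from the annotated gene start in kb (x axis; grey marks the gene body). Filled symbols passed an adjusted p of 0.05. Called gains include those in the first 12.0 kb of Kalrn, at internal starts of Tspan5 and in an intron of Cdh13 near 110 kb, while the symbols of Dab1, Cxcr4 and Reln are all open.

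The gains were not limited to promoters. Of the 22 peaks within 2 kb of a coding start of their own gene, 10 were higher at 48 h (45.5%), against 4.87% of all promoter peaks, and 5 were higher at 12 h, against 2.4%. Of the other 67, 15 were higher at 48 h (22.4%) and 10 at 12 h, against 9.76% and 12.4% of all peaks away from promoters. The share of distal peaks higher at 12 h was thus near the background. Of the 10 promoter peaks higher at 48 h, 7 lay in Tspan5, 2 in Cdh13 and 1 in Wdfy3. Several of those in Tspan5 are neighbours at the same internal start, so the 10 are not separate promoters. Among the 47 intronic peaks, 9 were higher at 12 h and 8 at 48 h. By time course, 9 peaks were higher at 48 h than at either earlier time with no call at 12 h, and 9 were higher at 12 h and 48 h with no called difference between these. Another 2, both in Cdh13, were higher at both times but lower at 48 h than at 12 h. A total of 55 peaks were called in no comparison. The shares of these courses over all peaks are not given here. The counts therefore describe the peaks of the chosen genes only, and a difference from the background was not tested.

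The libraries held 6283103 to 8112895 reads in peaks. In the text, reads are scaled to the mean of these library totals. The ES cell label was checked against the acetylation at promoters. All 6 stem cell markers had a promoter peak, and their summed scaled reads were 13988 to 14220 at 0 h, 15359 to 15506 at 12 h and 9773 to 12081 at 48 h. Of the 6 neuron markers 4 had a promoter peak (488 to 531, 432 to 436 and 629 to 876 reads in the same order), while Dcx and Snap25 had none. Of the 5 feeder fibroblast markers, only Col1a1 had one, with 15.4 to 17, 5.36 to 7.36 and 6.02 to 11.1 reads. Of the 5 endothelial markers, Pecam1 and Tek had one (66.9 to 69.8, 93.3 to 97.5 and 48.9 to 66.2 reads in sum) and Cdh5, Kdr and Tie1 had none. At 48 h, R1 held the lower stem cell sum and the higher neuron sum. Single markers differed within these sums. At 12 h, both libraries of Pou5f1, Zfp42 and Esrrb lay above 0 h, both of Nanog and Tfcp2l1 below, and Sox2 overlapped. Among neuron markers, Tubb3 rose from 165 and 168 reads at 0 h to 452 and 316 at 48 h. Rbfox3 was also higher in both 48 h libraries, while Stmn2 (327 and 286, then 304 and 273) and Map2 overlapped 0 h. In bulk cells, a change in the share of acetylated cells and a change per cell cannot be told apart. The NeuroD1 transgene itself is not measured by these peaks.

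At Kalrn (chr16:33969073-34573532, minus strand, ENSMUSG00000061751), acetylation was gained over the gene's 5′ end, and most strongly by an intronic peak 12.0 kb into the gene. That peak (chr16:34560756-34562299), had 6.16 and 6.37 scaled reads at 0 h, then 24.7 and 26.7 at 12 h, then 124 and 87.7 at 48 h. Both libraries rose at each step with no overlap between time points. Relative to 0 h, its log2 fold change came to 2.02 ± 0.44 (SE, n = 2 libraries per time point) at 12 h and 4.05 ± 0.37 at 48 h. The adjusted p was 0.00317 at 12 h, 6.77e-08 at 48 h and 9.42e-05 between 12 h and 48 h (edgeR's quasi-likelihood test). The 12 h call missed the threshold without 0 h R1 (adjusted p = 0.0525, edgeR) or 0 h R2 (adjusted p = 0.0779, edgeR), while the call at 48 h held without any single library.

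None of the coding starts used here lies at the annotated 5′ end of Kalrn, and the first coding starts lie 59.4 kb and more into the gene. At the 5′ end, peak 1 at -0.319 kb (chr16:34573366-34574336) had 26.7 and 21.2 reads at 0 h, then 16.1 and 25.8 at 12 h, then 151 and 55.0 at 48 h. Peak 2 at 0.855 kb (chr16:34572090-34573265) had 14.4 and 14.9, 23.6 and 17.5, and 133 and 59.3 reads at the same times. Neither was called at 12 h (-0.18 ± 0.46 and 0.48 ± 0.45), and both stood above all earlier libraries in each 48 h library, R1 more than R2. Their log2 fold changes at 48 h were 2.07 ± 0.38 and 2.69 ± 0.38, with adjusted p = 0.000561 and 2.37e-05 by edgeR's quasi-likelihood test. Relative to 12 h they were 2.25 ± 0.39 and 2.21 ± 0.36. Without 48 h R1 they were 1.19 and 2.01 relative to 0 h, and 1.37 and 1.54 relative to 12 h, with all 4 calls kept. Without 0 h R2, the adjusted p of peak 1 at 48 h was 0.0606 (edgeR). R1 at 48 h was also the library with the higher neuron marker sum, and the part of this difference in the Kalrn values was not tested. The small peak 3 at 1.94 kb, named here after its values were seen, had 0 and 1 reads at 0 h, then 5 and 3 at 12 h, then 15 and 7 at 48 h. The ratio of summed scaled reads of 48 h to 0 h was 20.4 with an exact 95% counting interval of 3.30 to 843. It was called at 48 h (adjusted p = 0.0134, edgeR), but not with DESeq2 (adjusted p = 0.0987) or without 0 h R1, 0 h R2 or 48 h R1 (adjusted p = 0.131, 0.0784 and 0.0832, edgeR).

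The first 4 peaks of Kalrn summed to 45.4 ± 2.6 (SD, n = 2) scaled reads at 0 h, 71.2 ± 2.1 at 12 h, then 317 ± 154 at 48 h, a 6.98-fold difference from 0 h to 48 h. The other 9 peaks, from 397 to 607 kb, summed to 219 ± 15, 183 ± 19 and 231 ± 46, so that their 48 h libraries overlapped those of 0 h. These stretches were set after the values were seen and were not tested. Among the distal peaks, the intronic peak at 403 kb had 11.3 and 9.55 reads at 0 h but 32.2 and 30.4 at 12 h, and it rose by 1.57 ± 0.40 on the log2 scale (adjusted p = 0.00985, edgeR). At 48 h it had 16.7 and 24.9 reads and its difference from 0 h did not pass the test (adjusted p = 0.119, edgeR). This 12 h call was lost without any of the 4 libraries compared and with DESeq2. The intronic peak at 485 kb had 29.8 and 24.4, 7.51 and 22.1, and 65.5 and 32.7 reads. It was called only between 12 h and 48 h (1.66 ± 0.41, adjusted p = 0.00781, edgeR), and not without 12 h R1 (adjusted p = 0.161, edgeR), while without 12 h R2 the value was 2.67. The remaining intronic peaks, at 398, 483, 488 and 593 kb, the exonic peak at 397 kb and the promoter peak of the short coding forms at 478 kb were not called. Just beyond the gene's 3′ end, the peak at 607 kb lies 299 bp from the start of Umps, inside that gene. It had 138 and 119 reads at 0 h but 78.3 and 76.4 at 12 h, and fell by 0.73 on the log2 scale (SE 0.24; adjusted p = 0.0387, edgeR), a call lost with TMM factors, with DESeq2, with the GC offset and without any of the 4 libraries compared.

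Rnd2 (chr11:101464999-101471853, plus strand, ENSMUSG00000001313), a gene of 6.86 kb, gained acetylation behind its 3′ end and not at its start. The downstream peak at 13.6 kb (chr11:101476683-101480421), whose nearest coding start is that of Rnd2, had 204 and 146 reads at 0 h, then 241 and 267 at 12 h, then 473 and 382 at 48 h. Each time point stood above the one before in both libraries. It rose by 1.28 ± 0.20 at 48 h relative to 0 h (adjusted p = 7.9e-05, edgeR's quasi-likelihood test), and this call held without any single library. The difference of 48 h from 12 h was 0.75 ± 0.19 (adjusted p = 0.0101, edgeR), and it was lost without either 12 h library (adjusted p = 0.159 and 0.115, edgeR). At the coding start, 3.18 kb into the gene record, the peak at 3.22 kb had 126 and 96.6 reads at 0 h, then 69.7 and 74.5 at 12 h, then 142 and 106 at 48 h. Both 12 h libraries lay below all others. It was called only between 12 h and 48 h (0.77 ± 0.25, adjusted p = 0.0316, edgeR), a call lost with DESeq2 (adjusted p = 0.0538), with only the 4 libraries compared and without any single library except 48 h R2. The broad peak at 0.161 kb, over the start of the gene record, had 446 and 468 reads at 0 h, then 262 and 266 at 12 h, then 393 and 321 at 48 h. It fell by 0.79 on the log2 scale at 12 h (SE 0.18; adjusted p = 0.00361, edgeR), a call lost without 0 h R2, 12 h R1 or 12 h R2 (adjusted p = 0.104, 0.087 and 0.0948, edgeR). This peak reaches into Vat1, whose start at 1070 bp is the nearest, so reads of both genes cannot be told apart there. The upstream peak at -5.3 kb, in Ifi35 and Vat1, was not called. Low values at 12 h, as at these start peaks, were common over all genes. The median gene sum was -0.29 at 12 h relative to 0 h and 0.32 at 48 h relative to 12 h, on the log2 scale.

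Tspan5 (chr3:138742195-138907905, plus strand, ENSMUSG00000028152) had the most gains: 14 of its 19 peaks were higher at 48 h than at 0 h, and 18 of 19 had a positive log2 fold change. DESeq2 called 9 of the 19 higher at 48 h than at 0 h, and for 48 h against 12 h it called 2 higher in place of 5. Coding transcripts start at 0, 67.7 and 118 kb. By the mean over libraries, the most reads lay not at the gene start but in a broad peak at 72.1 kb (chr3:138811873-138816625). This peak of 4753 bases has its edge just within 2 kb of the internal start. At 0 h its mean of 116 reads was below the 146 of the start peak at 1.285 kb, which is 2454 bases wide. Reads were not divided by width. The broad peak had 157 and 75.4 reads at 0 h, then 394 and 361 at 12 h, then 494 and 516 at 48 h. The 12 h libraries were already well above both 0 h libraries, which differed between themselves by more than the later pairs. It rose by 1.69 ± 0.23 on the log2 scale at 12 h and by 2.12 ± 0.23 at 48 h (adjusted p = 1.93e-05 and 7.61e-07, edgeR's quasi-likelihood test), both calls holding without any single library. Without 0 h R1, the higher of the 0 h pair, the values were 2.32 and 2.74.

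Other peaks at the internal starts followed different courses. The peak at 69.3 kb rose early, from 5.13 and 3.18 reads at 0 h to 26.8 and 20.2 at 12 h, then 28.9 and 33.5 at 48 h. Its log2 fold change was 2.45 ± 0.50 at 12 h and 2.87 ± 0.48 at 48 h (adjusted p = 0.00173 and 0.00018, edgeR), and without 0 h R2 the 12 h value missed the threshold (adjusted p = 0.0799, edgeR). Its neighbour at 67.8 kb, over the internal start, had 8.21 and 7.43 reads at 0 h, then 9.65 and 12.9 at 12 h, then 31.1 and 34.4 at 48 h. It was called at 48 h relative to 0 h (2.05 ± 0.42, adjusted p = 0.00168, edgeR) and to 12 h (1.52 ± 0.39, adjusted p = 0.00967, edgeR). The pair before the third coding start showed both courses again. The peak at 117 kb that is printed above (peak 17, chr3:138858232-138859189) had 9.24 and 12.7 reads at 0 h, then 44.0 and 29.4 at 12 h, then 66.6 and 51.6 at 48 h. Peak 18, right beside it, had 18.5 and 15.9, 22.5 and 23.0, and 50.0 and 55.0 reads. Peak 17 was called at both times (1.72 ± 0.39 and 2.41 ± 0.37, adjusted p = 0.00413 and 6.53e-05, edgeR), and peak 18 at 48 h relative to 0 h (1.61 ± 0.33, adjusted p = 0.00152, edgeR) and 12 h (1.20 ± 0.31, adjusted p = 0.00984, edgeR). The 12 h call of peak 17 was lost without 0 h R1, 0 h R2 or 12 h R1 (adjusted p = 0.0835, 0.0622 and 0.0924, edgeR). Without 0 h R2 the 48 h calls of the peaks at 67.8 kb and of peak 18 were lost (adjusted p = 0.0617 and 0.0712, edgeR), and their calls relative to 12 h were lost without either 12 h library.

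The 11 peaks from 67.8 to 84.9 kb summed to 221 ± 74 reads at 0 h, 634 ± 69 at 12 h, then 814 ± 61 at 48 h, 3.68-fold above 0 h. All 11 had positive log2 fold changes at both times, and 9 were called at 48 h and 5 at 12 h. The 2 peaks at the annotated start summed to 166 ± 26, 171 ± 21 and 293 ± 75, flat at 12 h and 1.77-fold above 0 h at 48 h. These sums were set after seeing the values and carry no test. The peak nearest to the start, at -0.325 kb, had 21.6 and 18, 28.9 and 22.1, and 25.5 and 30.1 reads and was not called at 48 h (0.49 ± 0.36, adjusted p = 0.402, edgeR). The stronger start peak at 1.285 kb, named here after its values were seen, had 162 and 129 reads at 0 h, then 157 and 134 at 12 h, then 320 and 210 at 48 h. It was called higher at 48 h than at 0 h (0.85 ± 0.22, adjusted p = 0.0116, edgeR) and than at 12 h (0.86 ± 0.22, adjusted p = 0.0101, edgeR). The first call was lost without 0 h R1 or 0 h R2 (adjusted p = 0.0545 and 0.248, edgeR), and the second without 12 h R1 or 12 h R2 (adjusted p = 0.0787 and 0.186, edgeR). Intronic peaks lay at 34.0, 46.4, 75.3, 77.0, 78.3, 80.1, 83.3, 84.1 and 84.9 kb. Of these 9, 5 were higher at 48 h and 3 at 12 h, and the 4 not called at either time were those at 34.0, 46.4, 80.1 and 84.1 kb. An upstream peak at -9.2 kb was higher at both times, and an exonic peak at 164 kb, near the 3′ end, was higher at 48 h.

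Cdh13 (chr8:118283733-119324921, plus strand, ENSMUSG00000031841) had its highest summed acetylation at 12 h. A pair of intronic peaks about 110 kb from the start rose steeply at 12 h and fell back in part by 48 h. The peak at 112 kb (chr8:118394628-118396528), printed above, had 34.9 and 25.5 reads at 0 h, then 162 and 193 at 12 h, then 54.4 and 96.3 at 48 h. Its neighbour at 109.8 kb (chr8:118392591-118394436) had 49.3 and 41.4, 180 and 166, and 91.0 and 93.7 reads. In both, the 12 h libraries were above those of 48 h, which were above those of 0 h, with no overlap. The log2 fold changes at 12 h were 2.55 ± 0.29 and 1.93 ± 0.25 (adjusted p = 1.87e-06 and 7.3e-06, edgeR's quasi-likelihood test). At 48 h they were 1.33 ± 0.31 and 1.03 ± 0.25 relative to 0 h (adjusted p = 0.00462 and 0.00777, edgeR). From 12 h to 48 h they fell by 1.22 and 0.90 (SE 0.26 and 0.23; adjusted p = 0.00275 and 0.00818, edgeR). The 12 h calls held without any single library. Without 0 h R2 both 48 h calls were lost (adjusted p = 0.159 and 0.168, edgeR), and the falls were lost without 12 h R2 (adjusted p = 0.0892 and 0.0958, edgeR), that at 109.8 kb also without 12 h R1 (adjusted p = 0.121, edgeR).

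The promoter of Cdh13 also rose by 12 h, by less, and no fall from 12 h to 48 h was called there. The peak at 0.733 kb had 27.7 and 23.4 reads at 0 h, then 55.8 and 57.0 at 12 h, then 62.2 and 49.0 at 48 h, and the peak at 2.78 kb had 53.4 and 53.1, 119 and 147, and 112 and 92.9. Both rose at 12 h (1.14 ± 0.30 and 1.32 ± 0.25, adjusted p = 0.013 and 0.000819, edgeR) and were still higher at 48 h (1.11 ± 0.30 and 0.94 ± 0.25, adjusted p = 0.0156 and 0.0142, edgeR). The 48 h calls of both were lost without either 0 h library (lowest adjusted p = 0.0803, highest 0.212, edgeR), and that of the first also with DESeq2 (adjusted p = 0.0585). The 12 h call of the first was lost without any of the 4 libraries compared, and that of the second without 12 h R2 (adjusted p = 0.0523, edgeR). Their differences between 12 h and 48 h were -0.03 ± 0.27 and -0.38 ± 0.23 (adjusted p = 0.953 and 0.253, edgeR). Small intronic peaks at 126 kb and 127 kb had at most 3 reads in each 0 h library. The first had 2 and 2 reads at 0 h, then 11 and 18 at 12 h, then 4 and 8 at 48 h, and the second 3 and 1, 9 and 21, and 2 and 12. Both were called at 12 h only by edgeR, the second (adjusted p = 0.0211, edgeR) being named here after its values were seen. Over the 10 peaks of Cdh13, DESeq2 called 4 higher at 12 h, in place of 6. Calls of the second small peak with single libraries left out are not given here. For these 2 small peaks, the ratio of summed scaled reads at 12 h to 0 h was 6.88 (exact 95% counting interval 2.42 to 26.9) and 7.12 (2.51 to 27.8). The call of the first (adjusted p = 0.0133, edgeR) was lost without 0 h R1, 0 h R2 or 12 h R2 (adjusted p = 0.0926, 0.132 and 0.157, edgeR). The 4 intronic peaks between 109.8 and 127 kb summed to 79.7 ± 13.6 reads at 0 h, 379 ± 22 at 12 h, then 180 ± 39 at 48 h, and the promoter pair to 78.7 ± 3.3, 189 ± 21 and 158 ± 23. Thus 4.76-fold and 2.41-fold differences at 12 h left 2.26-fold and 2.01-fold ones at 48 h, again without a test. The other intronic peaks, at 513, 653, 653 and 1021 kb, were not called and summed to 69.4 ± 0.6, 56.1 ± 6.5 and 55.0 ± 2.3.

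**Figure D2:**
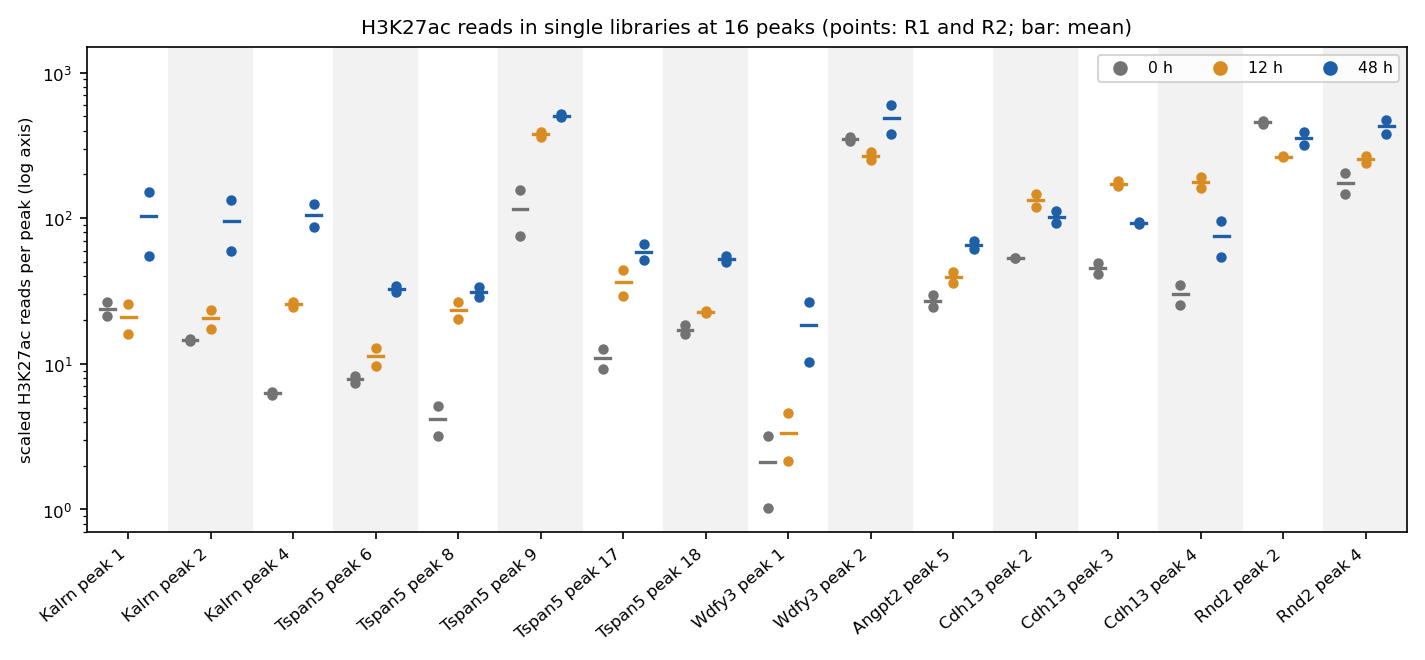
Scaled H3K27ac reads per peak (log y axis) in each library at 16 peaks (x axis), with points for R1 and R2 and a bar for their mean at 0 h (grey), 12 h (orange) and 48 h (blue). Kalrn peaks 1 and 2 reach 55.0 to 151 reads only at 48 h, Tspan5 peaks 8 and 9 are already up at 12 h, and Cdh13 peaks 3 and 4 are highest at 12 h.

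Wdfy3 (chr5:101832956-102069921, minus strand, ENSMUSG00000043940) had the most peaks, 23, but only 1 was higher at 48 h than at 0 h and only 1 lower at 12 h. The gained peak was small and lay at -2.06 kb, upstream of the large promoter peak. It had 1 and 3 reads at 0 h, then 2 and 5 at 12 h, then 24 and 12 at 48 h. Both 48 h libraries exceeded all others, and the ratio of summed scaled reads to those of 0 h was 8.36 (exact 95% counting interval 3.00 to 32.3). The log2 fold change was 3.03 ± 0.76 (adjusted p = 0.00846, edgeR's quasi-likelihood test), and 2.34 ± 0.68 relative to 12 h (adjusted p = 0.0196, edgeR). The call at 48 h was lost without 0 h R1, 0 h R2 or 48 h R1 (adjusted p = 0.114, 0.0655 and 0.079, edgeR), and that relative to 12 h without 12 h R1, 12 h R2 or 48 h R1. With 1 library left out, the value ran from 2.24 (48 h R1) to 3.98 (0 h R2) relative to 0 h and from 1.55 (48 h R1) to 3.00 (12 h R2) relative to 12 h. The promoter peak itself, at -0.271 kb (chr5:102068909-102071475), was the strongest of all 89 by the mean over libraries, with 360 and 341 scaled reads at 0 h, then 283 and 252 at 12 h, then 603 and 377 at 48 h. Its 12 h libraries were the lowest and its 48 h libraries the highest. Gene sums in general also stood low at 12 h, with a median of -0.29 relative to 0 h over all genes. At this promoter peak, the difference of 48 h from 12 h passed the test (0.87 ± 0.20, adjusted p = 0.00456, edgeR) and that from 0 h did not (0.48 ± 0.20, adjusted p = 0.111, edgeR). With an offset for GC content the latter became 0.69 and passed (adjusted p = 0.000186, edgeR). The call relative to 12 h was lost without 12 h R1 (adjusted p = 0.0555, edgeR) or 12 h R2 (adjusted p = 0.125, edgeR).

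Inside Wdfy3, 12 intronic peaks lay at 6.23, 12.7, 14.3, 17, 23.4, 29.7, 34.3, 55.2, 62.8, 63.2, 207 and 215 kb, and none was called in any comparison. Their log2 fold changes at 48 h ran from -0.44 to 0.33. The exonic peak at 222 kb had 153 and 143 reads at 0 h, then 94.4 and 90.1 at 12 h, then 110 and 92.0 at 48 h. It fell by 0.68 on the log2 scale at 12 h (SE 0.23; adjusted p = 0.0414, edgeR), a call lost with TMM factors, with DESeq2, with the GC offset and without any of the 4 libraries compared. It was 1 of 10 peaks over the last part of the gene and just beyond it, from 207 to 244 kb, whose nearest coding start is that of Cds1. The gene ends at 237 kb, and the peaks at 243 and 244 kb lie downstream of it. All 10 had negative log2 fold changes at 48 h, from -0.92 to -0.20, with 0 called by edgeR or DESeq2, 2 with an unadjusted p under 0.05, and 2 called with the GC offset. Their sum was 451 ± 5 reads at 0 h, 359 ± 7 at 12 h, then 310 ± 11 at 48 h, which did not overlap. This stretch was chosen after the values were seen, so the 0.69-fold level at 48 h is given without a test. Thus the small gain at the 5′ end of Wdfy3 stood beside lower values at and just beyond its 3′ end, and the sum over the gene hardly moved.

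Angpt2 (chr8:18690263-18741562, minus strand, ENSMUSG00000031465) lies wholly inside the gene body of Mcph1, so its 6 peaks belong to both. Its promoter peak at 0.068 kb was weak, with 9.24 and 11.7 reads at 0 h, then 13.9 and 15.6 at 12 h, then 19.99 and 9.46 at 48 h, and was not called. The only change was near the 3′ end. An exonic peak at 46.7 kb (chr8:18694338-18695371), printed above with 2 CAGATG boxes, had 29.8 and 24.4 reads at 0 h, then 42.9 and 35.9 at 12 h, then 61.1 and 69.6 at 48 h. The time points did not overlap, and the log2 fold change at 48 h was 1.27 ± 0.30 (adjusted p = 0.00495, edgeR's quasi-likelihood test). Without 0 h R2 the adjusted p was 0.139 (edgeR). At 12 h its value was 0.53 ± 0.31 (adjusted p = 0.247, edgeR). The strongest peak, exonic at 42.1 kb, had 57.5 and 48.8, 67.5 and 38.6, and 45.5 and 52.5 reads, with overlapping time points. The intronic peaks at 15.3, 44.4 and 47.5 kb were not called.

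No peak of Cxcr4, Reln or Dab1 was called in any comparison by edgeR or by DESeq2. Before adjustment, edgeR gave a p under 0.05 for 2 of the 7 Dab1 peaks at 12 h (higher) and 1 at 48 h (lower), for 1 of the 3 Cxcr4 peaks at 48 h (higher), and for 1 of the 4 Reln peaks at 48 h (lower). Cxcr4 (chr1:128588199-128592293, minus strand, ENSMUSG00000045382) had little acetylation at any time. Its strongest peak, at -0.849 kb, had 6 and 9 reads at 0 h, then 5 and 9 at 12 h, then 23 and 14 at 48 h. Both 48 h libraries were above all others here, and, in scaled reads, likewise at the peaks at -0.225 and 0.504 kb. The log2 fold changes at 48 h were 1.16 to 1.38, with an SE of 0.54 at the strongest peak (adjusted p = 0.141, edgeR). This peak passed with the GC offset and the replicate block together (1.34, adjusted p = 0.0447, edgeR). Between 12 h and 48 h, 2 of the 3 peaks had an unadjusted p under 0.05.

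Reln (chr5:21884454-22344702, minus strand, ENSMUSG00000042453) had a promoter peak at -0.098 kb with 31.8 and 38.2 scaled reads at 0 h, then 27.9 and 26.7 at 12 h, then 55.5 and 21.5 at 48 h, where the 2 libraries stood on either side of the 0 h level. Its difference at 48 h was 0.10 ± 0.36 (adjusted p = 0.898, edgeR). Its strongest peak, intronic at 254 kb, had 40.0 and 48.8, 34.3 and 24.8, and 26.6 and 28.4 reads, a difference of -0.68 ± 0.32 at 48 h (adjusted p = 0.162, edgeR), and further intronic peaks lay at 34.8 and 35.8 kb. Dab1 (chr4:103619359-104744844, plus strand, ENSMUSG00000028519) had no peak at its annotated 5′ end. Its strongest peak, at the coding start 748 kb into the gene, had 217 and 224 reads at 0 h, then 166 and 227 at 12 h, then 345 and 181 at 48 h. The 48 h libraries lay on either side of both 0 h libraries, and the difference from 0 h was 0.25 ± 0.24 (adjusted p = 0.547, edgeR). The peak nearest to the 5′ end, at 471 kb, had 39.0 and 71.1, 55.8 and 40.5, and 31.1 and 35.3 reads, and the other intronic peaks lay at 644, 886, 886 and 968 kb. Some of these calls turned on 48 h R2. Without it, the promoter peak of Dab1 (0.65, adjusted p = 0.000774, edgeR) and the strongest of Cxcr4 (1.69, adjusted p = 0.0195, edgeR) passed at 48 h relative to 0 h, and the promoter peak of Reln passed relative to 12 h (1.02, adjusted p = 0.00888, edgeR).

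Reads were also summed over all peaks of a gene and its 10 kb flanks, for 16175 protein-coding genes with a peak, to ask whether a gene's acetylation moved as a whole. At 12 h the median of all genes was -0.29 on the log2 scale with library totals, so values at that time are read relative to it. Sums fell for 30.2% of all genes at 12 h and rose for 7.13%, and relative to 12 h they were higher at 48 h for 38.2% and lower for 7.73%. At 48 h relative to 0 h the median was 0.03, with 6.45% higher and 5.35% lower. Of the 9 genes, Tspan5, Kalrn and Cdh13 were higher at 48 h than at 0 h and 0 were lower by edgeR or DESeq2, and 0 in the lower direction had an unadjusted p under 0.05. The sum of Tspan5 was 556 and 390 at 0 h, then 1013 and 873 at 12 h, then 1320 and 1301 at 48 h. Its log2 fold change was 0.99 ± 0.15 at 12 h, which is 1.29 above the median gene, and 1.47 ± 0.15 at 48 h (adjusted p = 0.00322 and 0.000223, edgeR's quasi-likelihood test). That of Kalrn was 277 and 253, 239 and 270, and 688 and 407, with no change called at 12 h and 1.04 ± 0.22 at 48 h (adjusted p = 0.0112, edgeR). That of Cdh13 was 240 and 215, 590 and 660, and 383 and 402. It rose by 1.46 ± 0.13 at 12 h and stood 0.79 ± 0.14 above 0 h at 48 h (adjusted p = 0.000179 and 0.00405, edgeR), and it was the only 1 of the 9 lower at 48 h than at 12 h (-0.67 ± 0.13, adjusted p = 0.00555, edgeR).

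The sums of Wdfy3 (0.03 ± 0.10 at 48 h), Dab1 (0.21 ± 0.19), Reln (-0.17 ± 0.23), Angpt2 (0.51 ± 0.21), Rnd2 (0.21 ± 0.12) and Cxcr4 (1.26 ± 0.43) did not pass the test at 48 h relative to 0 h. Rnd2 was lower at 12 h (-0.39 ± 0.12, adjusted p = 0.0335, edgeR), but only -0.09 from the median gene, and the call was lost with TMM factors (adjusted p = 0.49, edgeR). Relative to 12 h, 4 sums were higher at 48 h (Kalrn, Tspan5, Rnd2 and Cxcr4), of which only that of Kalrn passed with TMM factors. Without 0 h R2 the count of called sums at 48 h was 1 in place of 3, and without 48 h R2 it was 6.

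**Figure D3:**
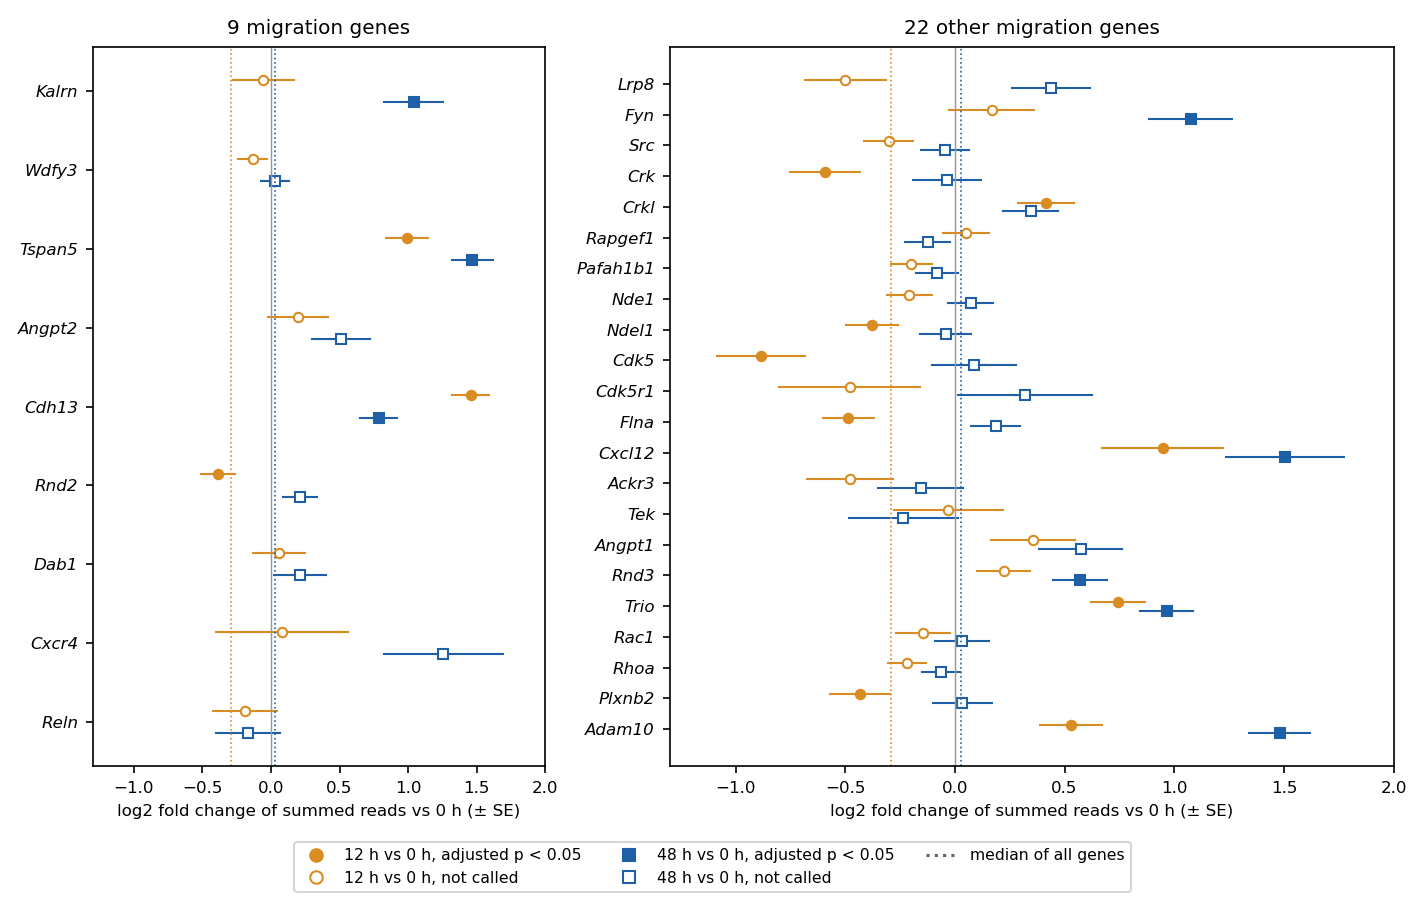
Log2 fold change ± SE of the H3K27ac reads summed per gene (x axis) relative to 0 h, at 12 h (orange) and 48 h (blue), for the 9 genes (left) and for 22 other genes of neuronal migration (right). Filled symbols passed an adjusted p of 0.05, and dotted lines mark the median of all genes, -0.29 at 12 h and 0.03 at 48 h. Tspan5, Cdh13 and Kalrn stand out on the left, and Adam10, Cxcl12, Fyn and Trio on the right.

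Partners of these genes in the same pathways were read in the same way. Of 25 listed genes, 22 had a peak (Vldlr, Dcx and Dclk1 had none), with 171 peaks in all. At 48 h, 5 of the 22 sums were higher than at 0 h by edgeR, against 6.45% of all genes. By the same test 0 were lower, against 5.35%, and none in the lower direction had an unadjusted p under 0.05. The median log2 fold change of the 22 was 0.08, beside 0.03 for all genes. This list too was chosen with earlier results of these data known, so the count describes chosen genes only. Several of the 5 were direct partners of genes above. Adam10, the protease that Tspan5 escorts, went from 182 and 176 reads to 259 and 258 at 12 h, then 512 and 488 at 48 h, and rose by 0.53 ± 0.14 and 1.48 ± 0.14 (adjusted p = 0.0182 and 0.000138, edgeR's quasi-likelihood test). Cxcl12, the ligand of Cxcr4, went from 33.9 and 30.8 to 63.3 and 61.6 and to 79.9 and 103, and was 1.504 ± 0.27 higher at 48 h (adjusted p = 0.00474, edgeR). Trio, the closest relative of Kalrn among exchange factors, went from 339 and 346 to 587 and 561 and to 716 and 623 (0.97 ± 0.12 at 48 h, adjusted p = 0.000681, edgeR). Fyn, a kinase that phosphorylates Dab1, had 366 and 298, 405 and 342, and 837 and 568 (1.08 ± 0.19 at 48 h, adjusted p = 0.0044, edgeR). Rnd3, a relative of Rnd2, was 0.57 ± 0.12 higher (adjusted p = 0.0127, edgeR). These 5 did not overlap between 0 h and 48 h, which follows largely from their being the called ones and is no separate support.

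Against 7.13% of all genes higher and 30.2% lower at 12 h, 4 of the 22 sums were higher (Crkl, Cxcl12, Trio and Adam10) and 5 lower (Crk, Ndel1, Cdk5, Flna and Plxnb2), of which Crkl, Crk, Ndel1 and Plxnb2 are named after their values were seen. Flna, an actin crosslinker mutated in a disorder of neuronal migration, had 533 and 526 reads at 0 h, then 386 and 371 at 12 h, then 604 and 601 at 48 h. Lrp8, a reelin receptor, was 0.94 ± 0.18 higher at 48 h than at 12 h (adjusted p = 0.00571, edgeR), 0.62 above the median gene. Among the lower, that of Cdk5, a kinase of neuronal migration, was 331 and 281 reads at 0 h, then 166 and 166 at 12 h, then 392 and 262 at 48 h. It fell by 0.89 on the log2 scale at 12 h (SE 0.20; adjusted p = 0.0119, edgeR), 0.59 below the median gene, and was the only 1 of the 5 to pass with TMM factors. The genes of nuclear movement and microtubules, 6 of 8 with a peak, had 3 sums lower at 12 h and 0 called at 48 h by edgeR (0 with an unadjusted p under 0.05), with a median of 0.08 at 48 h. The reelin receptors and adaptors, 6 of 7 with a peak, had 1 higher (Fyn) at 48 h. Of the 171 peaks, 28 were higher at 48 h (16.4%) and 4 lower, against 8.56% and 5.45% of all peaks. At 12 h, 12 were higher (7.02%) and 12 lower, against 9.93% and 6.03%.

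E-boxes were counted within 250 bp of each peak centre on both strands. CAGATG was found at 31 of the 89 peaks (34.8%), beside 29.3% of all 66783 peaks on the numbered chromosomes, X and Y. CAGCTG was found at 27 (30.3%), beside 25.2%, and either at 53.9%, beside 46.6%. Of the 25 peaks higher at 48 h, 10 held CAGATG (40.0%), beside 42.3% of all peaks higher at 48 h. Of the 15 higher at 12 h, 3 did, beside 37.8%. By gene, CAGATG was near the centre of 8 of the 19 Tspan5 peaks, 9 of 23 in Wdfy3, 4 of 13 in Kalrn and 2 of 10 in Cdh13. Over whole peaks, 18 of the 25 peaks higher at 48 h held CAGATG (72.0%), beside 61.6% of all peaks higher at 48 h. Peaks called higher were wider than the rest (median 873 bp, beside 584 bp for all 89), which raises the number of letters searched.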

How the data were processed

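H3K27ac ChIP-seq libraries of A2Lox ES cells, R1 and R2 each for 0 h, 12 h and 48 h with doxycycline, were analysed. The Input library was not used here. Groups and replicate numbers were taken from the sample labels, which give no batch. Per the methods and the submitters' processing notes, the authors used Bowtie2 (local alignment, mm10) and SAMtools 0.1.19, called peaks with MACS2 against Input, merged them over samples and counted reads with QuasR. The deposited values are raw counts per merged peak. A merged peak's width depends on all libraries, so broad peaks collect more reads.

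Counts (6283103 to 8112895 per library, median 30.5 per peak) were tested with edgeR 4.0.16 in R 4.3.3 (glmQLFit, glmQLFTest). One model of all 6 libraries had the time point as its factor and log library totals as offset, with Benjamini-Hochberg adjustment over all 66841 peaks. The common spread (biological coefficient of variation) was 14.85%, with 3 residual degrees of freedom. Gene sums were fitted likewise (10.55%), and genes that share a peak share its counts. Scaled reads are counts multiplied by the mean library total and divided by the library's own. Peaks with few reads have a wide counting error, and intervals cover counting error only. A promoter peak lay within 2 kb of a protein-coding start. Named peaks were, per gene, the one over or nearest the 5′ end, the strongest, and up to 5 called ones by smallest adjusted p. Sequence was read from GRCm38 with pysam 0.24.0 (some stretches are not reported here), and the GC offset was a smooth curve per library. Scripts were tested on simulated data. Alternatives were TMM factors, DESeq2 1.42.0, at least 10 counts in 2 libraries, the replicate block, the GC offset, the 4 libraries compared, each library left out, gene bodies alone and the nearest start. The members and lists were chosen with earlier results of these data known.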

Additional observations from a re-analysis of the deposited data

Results flagged for a closer look

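At 12 named peaks the later change was not that of the earlier time, by a direct comparison of 48 h with 12 h in edgeR's quasi-likelihood test (log2 fold change of 48 h relative to 12 h). Acetylation was higher at 48 h than at 12 h at peaks 1 (2.25), 2 (2.21), 4 (2.03) and 10 (1.66) of Kalrn, at peaks 1 (2.34) and 2 (0.87) of Wdfy3, at peaks 6 (1.52) and 18 (1.20) of Tspan5, and at peaks 3 (0.77) and 4 (0.75) of Rnd2. Of these, peak 4 of Kalrn was also called higher at 12 h, and peak 10 of Kalrn, peak 2 of Wdfy3 and peak 3 of Rnd2 had their lowest values at 12 h and were not called relative to 0 h. Acetylation was lower at 48 h than at 12 h at peaks 3 (-0.90) and 4 (-1.22) of Cdh13, the intronic pair near 110 kb. Over all peaks, 10.7% were higher and 8.43% lower in this comparison. Over all gene sums, 38.2% were higher and 7.73% lower, and the share over promoter peaks is not given here. Of the 12 calls, those of Kalrn peaks 1, 2 and 4 held without any single library, and the other 9 were each lost without at least 1 library.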

How the results depend on the processing

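The number of called peaks among the 89 was 18 at 12 h, 25 at 48 h and 15 between 12 h and 48 h. Over the alternatives that kept all 6 libraries it ran from 12 (DESeq2) to 19, from 18 (DESeq2) to 32, and from 10 (DESeq2) to 21, the highest in each case with the GC offset and replicate block together. With only the 4 libraries compared it was 25, 22 and 12. Leaving out 1 library gave 4 to 25, 6 to 29 and 4 to 30 peaks, the lowest without 0 h R2 at 12 h and at 48 h. Gene sums were called for 1 to 3, 1 to 6 and 0 to 7 genes when 1 library was left out, in place of 3, 3 and 5, and for 2 genes between 12 h and 48 h with TMM factors and for 2 with DESeq2. R1 and R2 share only a number: the deviations of R1 correlated by -0.0362, -0.0496 and 0.078 between time points. With the replicate as a block, 18, 27 and 16 peaks and 3, 3 and 5 sums were called. None of the 96 outcomes at named peaks (each peak in each comparison, called or not) changed. No value changed sign among the called ones. The share of peaks with CAGATG was 34.83% near the centre and 46.07% over the whole peak. Low read counts widen the error at Cxcr4 and at small intronic peaks. The causes were not tested.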
